A study of Populus euphratica with 12 samples.

Results

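The miR169 family was followed through the 4 leaf types of Populus euphratica, a desert poplar whose leaves change from linear (Li) through lanceolate (La) and ovate (Ov) to broad-ovate (Bo) as the tree ages. Members were all listed miRNAs whose name is ptc-miR169 followed by a letter, which gave 15 of the 257 miRNAs in the small RNA libraries. Members were thus chosen by name among the miRNAs that the authors' list holds. The family itself was selected on earlier results of these data, among them the very low level of ptc-miR169n-3p in Bo leaves. The levels of that member in Bo leaves are therefore given as a description, with no P value or interval, and nothing is supported with them. P values and intervals of other members in Bo leaves are to be read with that selection in mind. Each leaf type had 3 biological replicates, numbered 1 to 3, of juvenile leaves taken from trees growing at a single site. Li leaves came from trees 0 to 3 years old, La leaves from trees of 4 to 6 years, Ov leaves from trees of 8 to 12 years and Bo leaves from trees older than 20 years. Leaf type and tree age therefore changed together and cannot be told apart. The labels do not say whether the replicates of a leaf type came from separate trees, so the P values measure the spread between these samples.

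miR169 is one of the large conserved miRNA families of flowering plants. Its best-known targets are mRNAs for NF-YA proteins, the subunits that let the trimeric NF-Y transcription factor recognise CCAAT boxes in promoters. In Arabidopsis the family is known for falling under drought and nitrogen shortage, which releases NF-YA mRNAs from cleavage. The mature sequence that pairs with NF-YA mRNAs normally comes from the 5p arm of the hairpin, and the 3p arm gives the partner strand. NF-YA mRNAs, target cleavage and the mature sequences themselves were not analysed here, so the family was identified by name and not by sequence.

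Levels are given in RPM, in which the reads of a miRNA are scaled to the same total for every library, the value the authors named TPM. Every value was a whole multiple of the value of 1 read, so the reads behind it could be read off. The libraries held from 199583 (Bo1) to 632114 (Ov1) reads on the listed miRNAs, the only reads counted here. Hence 1 read was worth 5.01 RPM in Bo1 and 1.58 RPM in Ov1. A member with no read could still have been present at up to 15.03 RPM in Bo1 and 4.75 RPM in Ov1 (3 reads, a limit that covers counting error only, as do all exact intervals). Members were compared between leaf types with limma on log2(RPM + 1), fitted over the 216 miRNAs that averaged 1 RPM or more, with P values adjusted over all of them and a threshold of 0.05. Of the 15 members, 14 entered this fit, and ptc-miR169aa, with 1 read in the series (La1), did not.

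The family was a minor part of the reads on listed miRNAs. Its 15 members together held 724 reads, 0.0165% of the reads on the 257 listed miRNAs in the 12 libraries. A single member, ptc-miR169n-3p, gave 37.0% of these reads with 268, and ranked 115 among the 257 miRNAs by mean level. Next came ptc-miR169d with 95 reads, while each of the remaining 13 members had fewer than 50 reads in the whole series. Only ptc-miR169a and ptc-miR169d had a read in every library. With names that give no arm, 11 members could not be assigned to a side of the hairpin from the files, 2 members were named 3p (n-3p and b-3p) and 2 were named 5p (n-5p and u-5p). The sources used here do not give how reads that match several members were shared out, and the division of reads among similar members is uncertain.

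**Figure D1:**
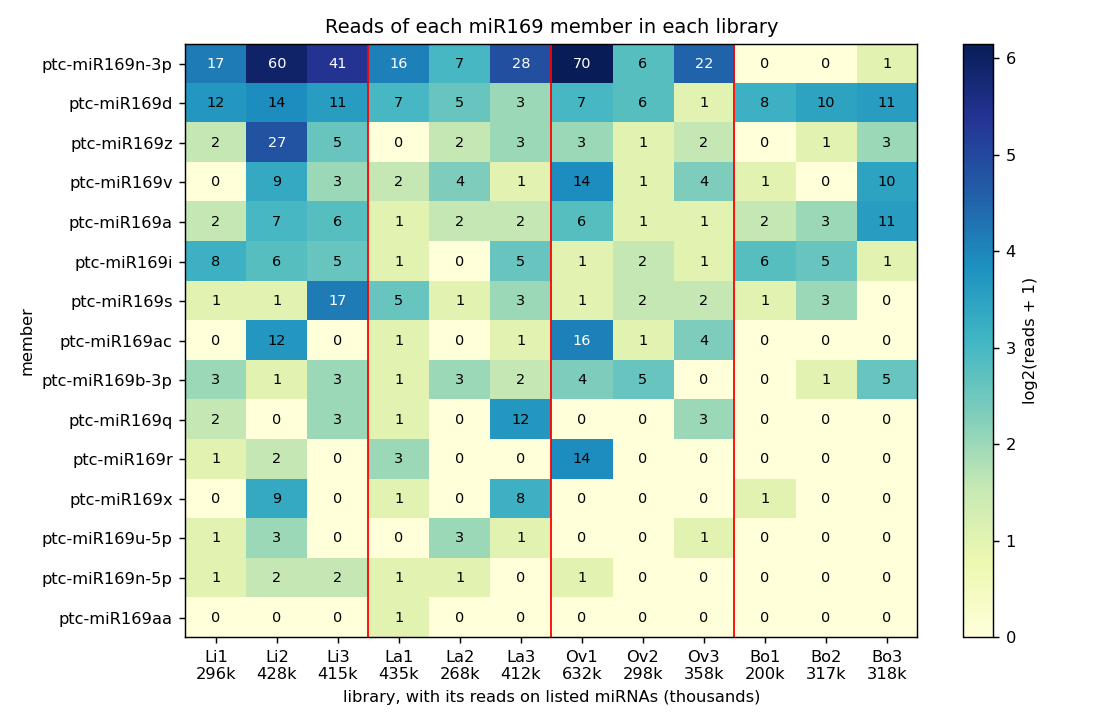
Reads of the 15 miR169 members (rows, ordered by total reads) in the 12 libraries (columns, with the reads of each on listed miRNAs). The colour gives log2(reads + 1) and red lines separate the leaf types. The row of ptc-miR169n-3p is filled in Li, La and Ov leaves and holds 1 read in Bo leaves, and several rare members have most of their reads in 1 library.

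The family sum was highest in Li leaves. It was 168.8, 358 and 231 RPM in Li1, Li2 and Li3, against 94.2, 104.5 and 167.3 RPM in the La replicates. In Ov leaves it was 217, 84.0 and 114 RPM, and in Bo leaves 95.2, 72.7 and 132 RPM. Every Li library was thus above every La and every Bo library, whereas Ov1 lay inside the Li range. Li leaves averaged 253 ± 96.3 RPM, Ov leaves 138 ± 69.5 RPM, La leaves 122 ± 39.6 RPM and Bo leaves 99.9 ± 29.9 RPM (SD, n = 3 each). The ranges of La, Ov and Bo leaves overlapped one another, so the order among these 3 leaf types lay within the spread of replicates. The ratio Bo/Li of the means was 0.395 with all members and 0.643 without ptc-miR169n-3p. Without that member Bo3 (128.7 RPM) was above Li1 (111.4 RPM), so Li and Bo libraries were no longer apart. The means were then 153.8 RPM in Li, 98.9 in Bo, 78.4 in La and 74.3 in Ov leaves. The ranges of La, Ov and Bo leaves still overlapped. The last place of Bo leaves in the full sum thus rested on the member for which the family was taken up. A sum over members chosen with results known was not tested.

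The members that made up the sum were not the same in each leaf type. In Bo leaves ptc-miR169n-3p gave 1.19% of the family reads (1 of 84), against 39.5% in Li (118 of 299), 37.0% in La (51 of 138) and 48.3% in Ov leaves (98 of 203). Most Bo reads of the family came from ptc-miR169a, ptc-miR169d and ptc-miR169i, a trio put together after its values were seen. These 3 members gave 84.2%, 78.3% and 54.8% of the family reads in Bo1, Bo2 and Bo3, and between 7.32% (Ov3) and 44.0% (Li1) in the other 9 libraries.

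**Figure D2:**
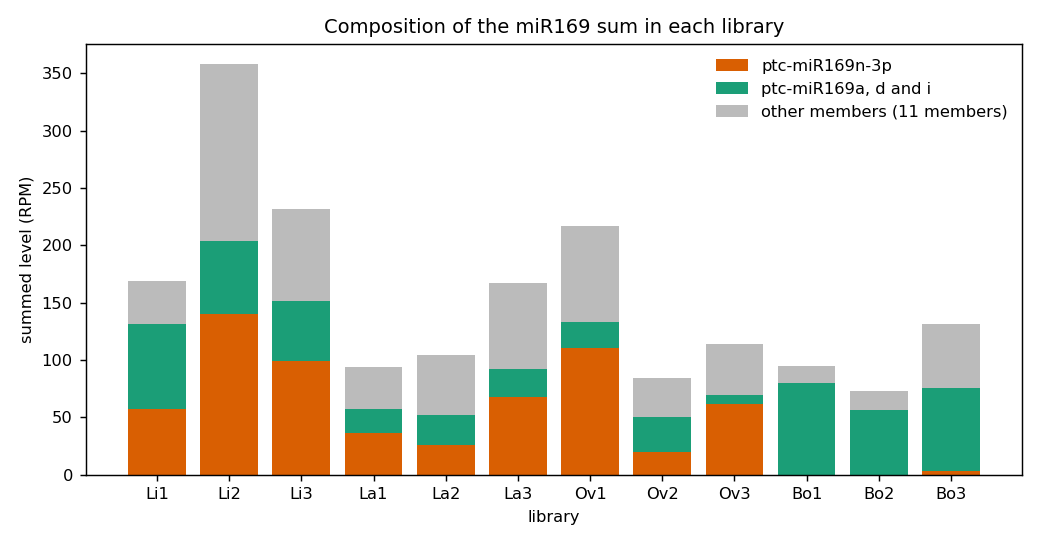
Summed level of the family in RPM (bar height) in each of the 12 libraries, divided into ptc-miR169n-3p, the trio of ptc-miR169a, ptc-miR169d and ptc-miR169i, and the 11 other members. The orange part is 57.4 RPM in Li1 and 140.3 RPM in Li2 but 0, 0 and 3.14 RPM in the Bo libraries, where the green part makes up most of each bar.

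The most abundant member was ptc-miR169n-3p, the 3p strand of the ptc-miR169n hairpin. It was at 57.4, 140.3 and 98.8 RPM in Li1, Li2 and Li3, from 17, 60 and 41 reads. La leaves had 36.7, 26.1 and 67.9 RPM, and Ov leaves 110.7, 20.2 and 61.4 RPM. Bo1 and Bo2 had no read of it and Bo3 had 1 read, or 3.14 RPM. All 9 libraries of the younger trees were therefore above all 3 Bo libraries, the lowest of them being Ov2 with 6 reads. Li, La and Ov leaves overlapped among themselves, at means of 98.8 ± 41.4, 43.6 ± 21.7 and 64.1 ± 45.3 RPM (SD, n = 3 each). None of the differences between these 3 leaf types passed in limma (La/Li, adjusted p = 0.55; Ov/Li, adjusted p = 0.59; Ov/La, adjusted p = 0.95).

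At the pooled level of Li leaves the 3 Bo libraries would have held 86.5 reads of ptc-miR169n-3p, at that of La leaves 38.1 and at that of Ov leaves 63.5, and they held 1. The fitted log2 fold changes were -5.87 for Bo/Li, -4.69 for Bo/La and -5.04 for Bo/Ov. At so few reads these depend on the pseudocount, and Bo/Li was -8.19 with a pseudocount of 0.1 and -3.24 with 10. The 3 comparisons share the Bo samples, and their values are those the family was taken up for.

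**Figure D3:**
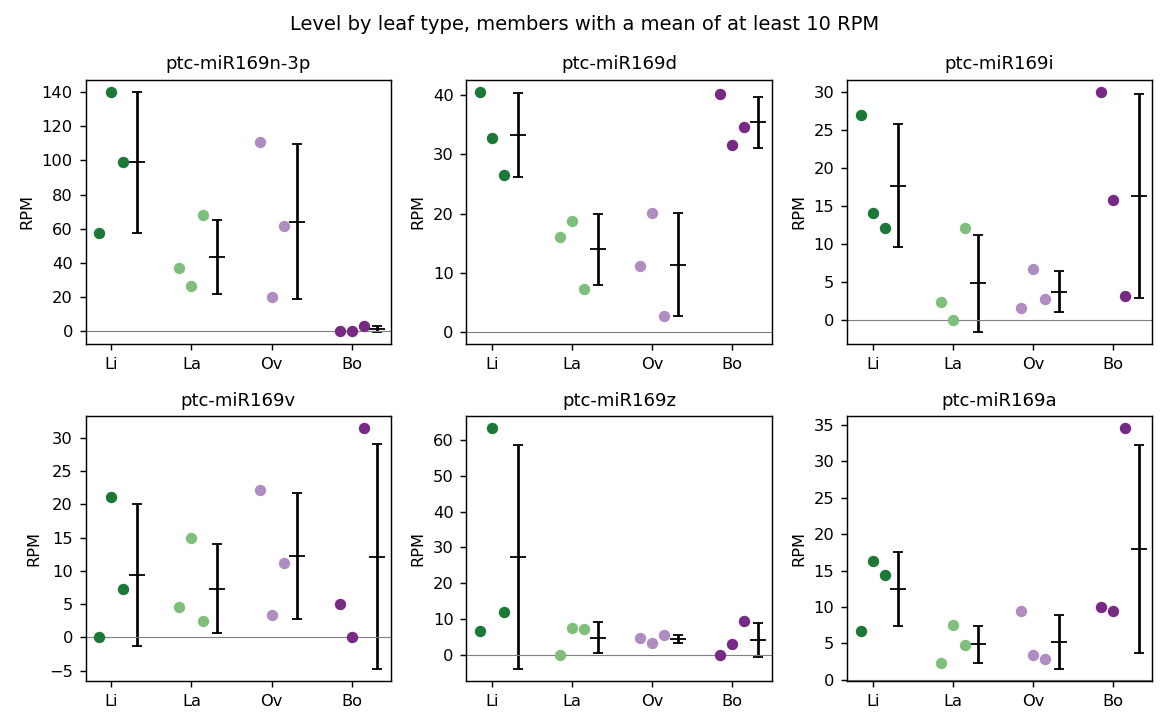
Level in RPM (vertical axes, each with its own range) of the 6 members with a mean of at least 10 RPM, by leaf type; points are the 3 replicates in order of their number, and the dash and bar beside them are the mean and SD. Bo leaves lie between 0 and 3.14 RPM for ptc-miR169n-3p, and between 31.6 and 40.1 RPM for ptc-miR169d, above every La and Ov value of that member.

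Reads of the other strand, ptc-miR169n-5p, were scarce. It had 1, 2 and 2 reads in the Li libraries, 1, 1 and 0 in La, 1, 0 and 0 in Ov and none in Bo. The 3p strand thus made up 97.1% of the reads of the hairpin, 268 against 8 (95% exact interval 94.4% to 98.7%), with 95.9% in Li, 96.2% in La and 99.0% in Ov leaves. The intervals of these 3 shares overlapped (90.8% to 98.7%, 87.0% to 99.5% and 94.5% to 99.97%). At 4.29 ± 0.80 RPM (SD, n = 3) every Li library was above every Ov and every Bo library for the 5p strand. Its fitted log2 Bo/Li difference of -2.39, with a standard error of 0.80, did not pass in limma (adjusted p = 0.069). It did pass in 3 alternatives, one of them the fit without La3 (adjusted p = 0.0495 in limma), a library in neither leaf type of that pair, and its adjusted p ranged from 0.0319 to 0.163 over the alternatives. At the pooled Li level 3.66 reads would be expected in the 3 Bo libraries, which held 0. Having no read in Bo leaves, ptc-miR169n-5p entered the fit through the other leaf types, and its Bo/Li change could not be positive. Nothing is therefore read from the P values of that change.

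Among the listed miRNAs, 18 annotated hairpins had both arms, and the 3p arm had more reads in 11 of them. By the ratio of 3p to 5p reads ptc-miR169n, at 33.5, ranked 4 of 18, after ptc-miR482d (653.5), ptc-miR482b (44.1) and ptc-miR6421 (39.8). For 17 hairpins both arms entered the fit. The fitted Bo/Li change was below -2 on both arms in 2 of them, ptc-miR169n and ptc-miR477a, and it was below 0 on both arms in 4. Nothing is read from the place of ptc-miR169n in these counts. The family was taken up for the 3p level of this hairpin in Bo leaves. Its 5p strand had no read there and entered the fit through the other leaf types. In ptc-miR477a, at -5.49 (3p) and -4.68 (5p), both arms were well covered, with 327 and 143 reads, whereas the 5p strand of ptc-miR169n rested on 8 reads. The difference between the arms' changes was 3.48 for ptc-miR169n on the log2(RPM + 1) scale, which understates the change of a strand at a few reads.

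**Figure D4:**
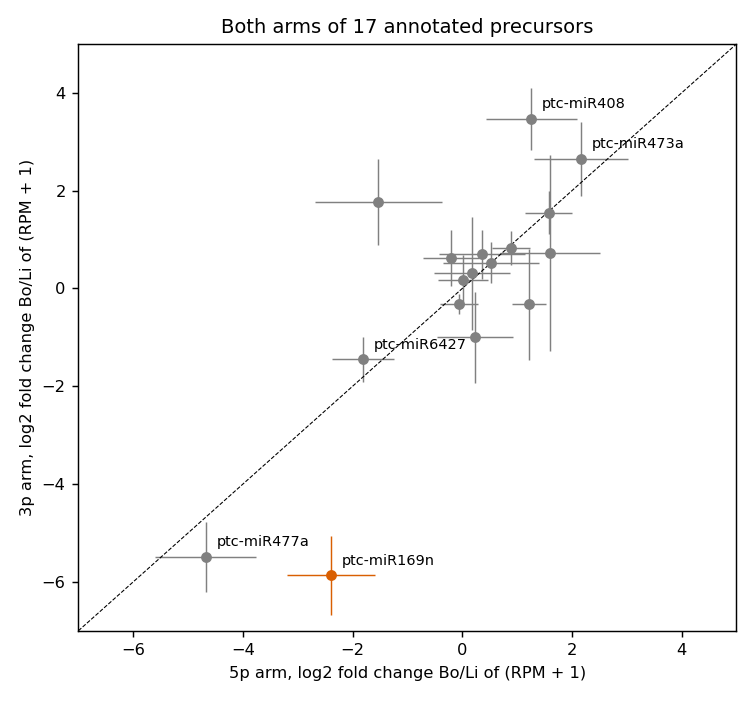
Log2 fold change Bo/Li of (RPM + 1) for the 5p arm (horizontal) and the 3p arm (vertical) of the 17 annotated hairpins with both arms in the fit; bars are standard errors and the dashed line marks equal change. ptc-miR169n, in orange, lies at -2.39 and -5.87, and ptc-miR477a is the only other hairpin below -2 on both axes. Nothing is read from the place or bars of ptc-miR169n, for whose 3p level in Bo leaves the family was taken up.

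Unlike ptc-miR169n-3p, ptc-miR169d was as abundant in Bo as in Li leaves and lower in between. Its level was 40.5, 32.7 and 26.5 RPM in the Li replicates, from 12, 14 and 11 reads, and 40.1, 31.6 and 34.5 RPM in the Bo replicates, from 8, 10 and 11 reads. The La replicates were at 16.1, 18.7 and 7.27 RPM and the Ov replicates at 11.1, 20.2 and 2.79 RPM. Every Li and every Bo value was above every La and every Ov value. Over pooled reads the ratio Bo/La was 2.58 (95% exact interval 1.34 to 5.19), Bo/Ov 3.20 (1.64 to 6.55), Li/La 2.42 (1.29 to 4.74) and Li/Ov 2.99 (1.58 to 5.99), while Bo/Li was 1.07 (0.634 to 1.79). These intervals hold counting error only. In limma, which also takes in the spread of replicates, none passed after adjustment. The log2 fold change was 1.87 for Bo/Ov (standard error 0.71, adjusted p = 0.25), 1.37 for Bo/La (standard error 0.71, adjusted p = 0.43), -1.77 for Ov/Li (standard error 0.71, adjusted p = 0.15) and -1.26 for La/Li (standard error 0.71, adjusted p = 0.47). Bo/Ov and Ov/Li were past the threshold before adjustment.

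For ptc-miR169i and ptc-miR169a the Li and Bo means were likewise above the La and Ov means, on fewer reads. For ptc-miR169i the Li replicates were at 27.0, 14.03 and 12.0 RPM and the Bo replicates at 30.1, 15.8 and 3.14 RPM. La leaves had 2.30, 0 and 12.1 RPM, and Ov leaves 1.58, 6.72 and 2.79 RPM, so every Li value was above every Ov value and the other ranges met or overlapped. For ptc-miR169a the Li replicates were at 6.75, 16.4 and 14.5 RPM and the Bo replicates at 10.02, 9.48 and 34.5 RPM. La leaves had 2.30, 7.46 and 4.85 RPM and Ov leaves 9.49, 3.36 and 2.79 RPM, so that every Bo value was above every La value. Neither member passed in any of the 6 pairs (the smallest adjusted p was 0.24 in limma, for ptc-miR169i in Ov/Li). The sum of ptc-miR169a, ptc-miR169d and ptc-miR169i lay between 53.0 and 80.2 RPM in the 6 Li and Bo libraries and between 8.37 and 30.2 RPM in the 6 La and Ov libraries. The trio was chosen for this pattern, and its sum was not tested.

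Among the rarer members, reads were often concentrated in a single library rather than in a leaf type. Of the 49 reads of ptc-miR169z, 27 were in Li2 (63.1 RPM), where its total and the library's depth would give 4.79. Li1 and Li3 had 6.75 and 12.0 RPM, and no other library was above 9.42 RPM (Bo3). The Li mean of ptc-miR169z, 27.3 ± 31.1 RPM (SD, n = 3), was therefore set by Li2, and the log2 fold change Bo/Li of -2.41 (standard error 1.11) did not pass in limma (adjusted p = 0.22). Without Li2 it was -1.52, and without Bo1 -1.50. Likewise 17 of the 37 reads of ptc-miR169s were in Li3 (41.0 RPM), against 3.51 expected from depth, while Li1 and Li2 had 1 read each.

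Ov1 and La3 held similar concentrations. Ov1, the deepest library, had 14 of the 20 reads of ptc-miR169r, where depth would give 2.89. It also had 16 of the 35 reads of ptc-miR169ac against 5.05 expected from depth, and Li2 had 12 more of them. La3 had 12 of the 21 reads of ptc-miR169q (29.1 RPM). The 19 reads of ptc-miR169x fell to Li2 (9), La3 (8), La1 (1) and Bo1 (1). The same libraries recurred in this set, with Li2 high for ptc-miR169z, ptc-miR169ac and ptc-miR169x, and Ov1 for ptc-miR169r, ptc-miR169ac and ptc-miR169v (14 of 49 reads).

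Of these members ptc-miR169ac had the largest step between neighbouring leaf types. It was at 25.3, 3.36 and 11.2 RPM in the Ov replicates, above each La replicate (2.30, 0 and 2.42 RPM), and had no read in Bo leaves. With 21 reads in Ov leaves against 0 in Bo leaves, the Ov level was 4.54 times the limit that 3 reads over the 3 Bo libraries set, and the lower end of the 95% exact interval of the ratio was 3.37. Most of this rested on Ov1, without which these values were 2.12 and 1.17, an alternative chosen after the data were seen. In limma the log2 fold change was -3.48 for Bo/Ov (standard error 1.21, adjusted p = 0.21) and 2.32 for Ov/La (standard error 1.21, adjusted p = 0.95), so neither passed. ptc-miR169ac was singled out for this step, and it entered the fit through leaf types other than Bo. Its change in Bo leaves could thus not be positive, and nothing is read from its interval. In Li leaves all of its 12 reads were in Li2.

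ptc-miR169v and ptc-miR169b-3p were spread over all 4 leaf types. The Ov and Bo means of ptc-miR169v were 12.2 ± 9.44 and 12.1 ± 16.9 RPM, and its Li and La means 9.42 ± 10.7 and 7.31 ± 6.68 RPM (SD, n = 3 each), with 10 of the 11 Bo reads in Bo3. The 4 means of ptc-miR169b-3p, the other 3p strand, lay between 6.11 RPM (La) and 7.71 RPM (Ov), and its reads, 28 in all, never exceeded 5 in a library. In Bo leaves, where 5.13 reads would be expected from the Li level, ptc-miR169b-3p had 6, with 0, 1 and 5 in Bo1, Bo2 and Bo3. Over pooled reads it thus did not share the near absence of ptc-miR169n-3p, but this rested on Bo3. The least abundant members, ptc-miR169n-5p, ptc-miR169u-5p and ptc-miR169aa, had 8, 9 and 1 reads in the series.

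**Figure D5:**
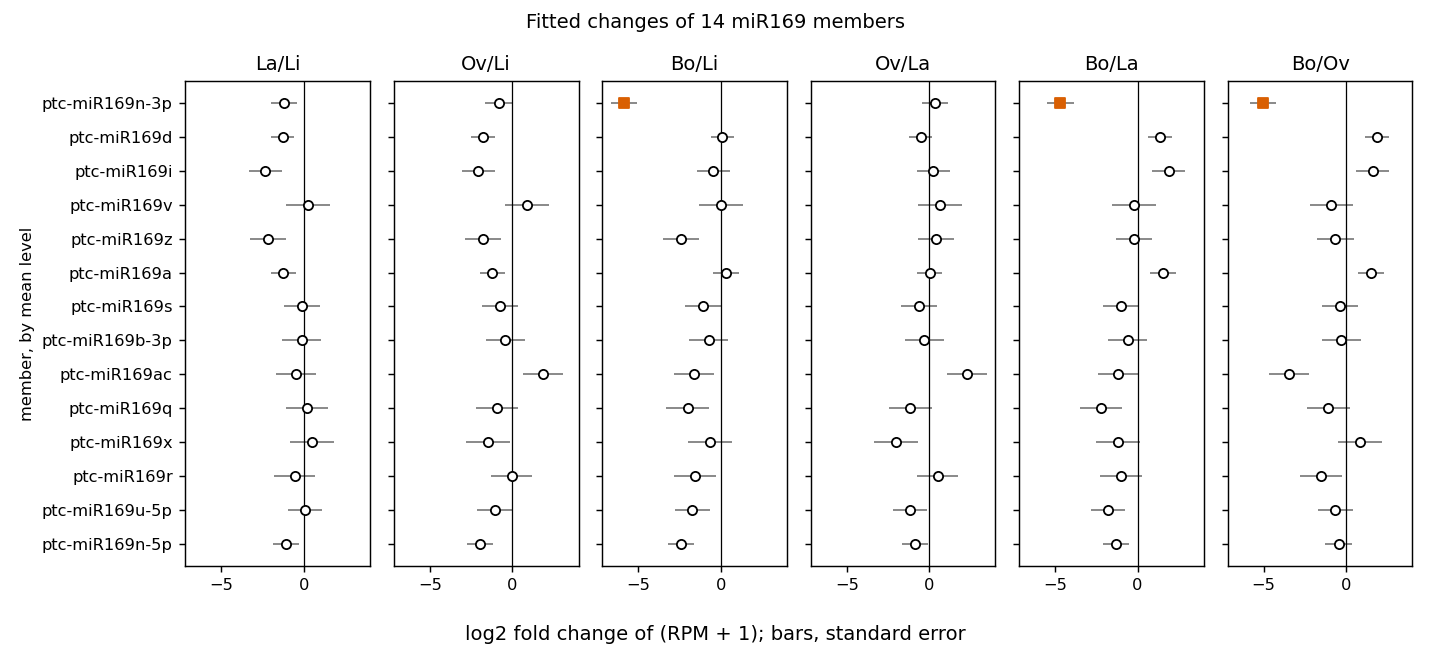
Fitted log2 fold changes of (RPM + 1) for the 14 members in the fit (rows, by mean level) in the 6 pairs of leaf types, with standard errors as bars. Orange squares mark the values of ptc-miR169n-3p in Bo leaves, and open circles all others. No P value is given for the squares and nothing is read from their bars, because the family was taken up for these values. The squares lie at -5.87, -4.69 and -5.04, and no open circle passed the adjusted threshold.

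Counted over the 14 members in the fit, 1 passed the adjusted threshold for Bo/Li, where 12.5% of the 216 miRNAs did. For Bo/La and Bo/Ov 1 passed as well, where 3.7% and 2.78% of the miRNAs did. This was ptc-miR169n-3p each time, and nothing is read from these counts, because its level in Bo leaves was known when the family was taken up. No member passed in limma for La/Li (1.85% of all miRNAs), Ov/Li (4.17%) or Ov/La (0%). Before adjustment 1 member passed for La/Li (14.8% of all miRNAs), 2 for Ov/Li (23.1%) and 0 for Ov/La (1.85%), and 3 for Bo/Li (22.2%), 1 for Bo/La (13%) and 3 for Bo/Ov (14.4%). The groups did not overlap for 1 member in La/Li (19% of all miRNAs), 4 in Ov/Li (26.9%), 2 in Bo/Li (31.5%), 1 in Ov/La (7.41%), 3 in Bo/La (18.5%) and 3 in Bo/Ov (19.9%). In every pair the share of members without overlap was near the background or below it.

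The median log2 fold change Bo/Li of the 14 members was -1.32, and that of all 216 miRNAs was 0.09. For Ov/Li these medians were -0.996 and -0.0035, for La/Li -0.50 and 0.08, and for Bo/La -0.99 and 0.09. The 15th member was left out for its low level. For Bo/Ov the medians were -0.55 and 0.01, and for Ov/La -0.13 and -0.11. The 14 members include ptc-miR169n-3p, whose level in Bo leaves the family was taken up for. They also include ptc-miR169ac, ptc-miR169n-5p, ptc-miR169q, ptc-miR169r and ptc-miR169u-5p, which had no read in Bo leaves. These entered the fit through the other leaf types, so their changes in Bo leaves could not be positive. Nothing is therefore read from the medians of the pairs with Bo leaves. With a mean of at least 10 RPM required, 6 members were left, and the medians moved in both directions. Bo/Li was then -0.21, La/Li -1.25 and Ov/Li -1.48, while Bo/La (0.58), Bo/Ov (0.44) and Ov/La (0.31) had the opposite sign to that over 14 members.

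Fewer members were seen in the Bo libraries, which were also the smallest leaf type by pooled reads. Between 9 and 13 members had a read in each Li, La and Ov library, and 6, 6 and 7 in Bo1, Bo2 and Bo3. At the 199583 reads of Bo1, the expected number was between 9.21 and 11.2 in the Li libraries, between 7.46 and 9.46 in the La and Ov libraries and between 5.15 and 6.19 in the Bo libraries. At equal depth the Bo range lay below those of the other leaf types, and the Li range overlapped that of La leaves. The members counted include ptc-miR169n-3p, which had no read in Bo1 and Bo2 and for which the family was taken up. The lower count in Bo leaves was thus partly built in, and nothing is read from it. Over their 3 libraries, 6 members had no read in Bo leaves, namely ptc-miR169aa, ptc-miR169ac, ptc-miR169n-5p, ptc-miR169q, ptc-miR169r and ptc-miR169u-5p, against 2 in Ov, 1 in Li and 0 in La leaves. Apart from ptc-miR169ac, none of the 6 had more than 5 reads in Li leaves. At the La level 9.72 reads of ptc-miR169q would be expected in Bo leaves, and at the Ov level 9.07 of ptc-miR169r, but most of these rest on La3 and Ov1.

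For each member that averaged 10 RPM or more, the 202 other miRNAs in the fit were ranked by the correlation of their log2(RPM + 1) values with its own over the 12 libraries. The points share libraries and depth, and the correlations are given as a description. For ptc-miR169n-3p the closest were ptc-miR477a-5p (Pearson's r = 0.93), ptc-miR156g (0.92) and ptc-miR403c-5p (0.90). All 3 were lowest in Bo leaves. As ptc-miR169n-3p was nearly absent there, a ranking by likeness to it favours miRNAs that are low in Bo leaves. Nothing is therefore read from their low levels. ptc-miR477a-5p was at 2.09 ± 3.62 RPM there and 59.2 ± 46.1 in Li leaves, and ptc-miR403c-5p at 210.8 ± 21.4 and 394.7 ± 17.5 RPM (SD, n = 3 each). miR156, which represses SPL genes and marks juvenile shoots, was at 77.7 ± 27.9 RPM in Bo and 1020 ± 249 RPM in Li leaves in the case of ptc-miR156g, with La and Ov leaves in between, whereas ptc-miR169n-3p was not ordered between Li, La and Ov leaves. For ptc-miR169d the closest were ptc-miR171a-3p (0.82), ptc-miR7813 (0.82) and the predicted miRNA NW_011499965.1_16822 (0.80). ptc-miR171a-3p was at 959 ± 391 RPM in Bo and 804 ± 139 in Li leaves, against 613 ± 336 in La and 457 ± 277 in Ov leaves (SD, n = 3 each), the same order of the leaf types as ptc-miR169d. A ranking by likeness favours such a shared order, so nothing is read from it.

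For ptc-miR169a these were NW_011499965.1_16822 (0.70), ptc-miR390d-3p (0.68) and ptc-miR390a (0.68), for ptc-miR169i ptc-miR399f (0.70), peu-miR2916 (0.69) and NW_011499895.1_11020 (0.64). ptc-miR399f, of a family that responds to phosphate shortage, averaged 1288 ± 522 RPM in Li and 890.3 ± 239 RPM in Bo leaves, against 310.5 ± 166.6 RPM in La and 436.5 ± 188 RPM in Ov leaves (SD, n = 3 each). ptc-miR169z was closest to ptc-miR395b (0.71), and then to NW_011500798.1_32807 (0.68) and NW_011499895.1_11020* (0.64), and ptc-miR169v to ptc-miR160g (0.70), NW_011500798.1_32807 (0.60) and NW_011500051.1_21579 (0.60). At the read numbers of these 4 members such values of r are weak. The ranking again favours miRNAs with a like order of the leaf types, and nothing is read from that order.

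Since miR169 responds to nutrient supply in Arabidopsis, the miRNAs of nutrient-responsive families (miR395, miR399, miR827, miR2111, miR397, miR398, miR408 and miR1444) were counted in the same fit. Of 19 listed, 15 were in the fit, and for Bo/Li 1 was higher and 2 lower past the adjusted threshold, beside 12.5% of all miRNAs in the fit. For La/Li 2 were lower (1.85% of all miRNAs) and for Ov/Li 1 was higher and 1 lower (4.17%). None passed in limma for Ov/La (0% of all miRNAs) or Bo/La (3.7%). Before adjustment 0 passed for Ov/La (1.85%), and 1 higher and 1 lower for Bo/La (13%). The largest Bo/Li change among those that passed was that of ptc-miR395b, of a family that represses sulfate transport and assimilation, at -6.21 (standard error 0.62). The median of the list for Bo/Li was -0.50. Of 45 listed miRNAs of 12 families known from leaf development, 42 were in the fit, and for Bo/Li 4 were higher and 2 lower, a share near the 12.5% of all miRNAs. The largest change was that of ptc-miR156a at -4.53 (standard error 0.40), and the median was -0.04. For Ov/Li 1 was lower (4.17% of all miRNAs passed) and for Bo/La 2 were lower (3.7%). None passed in limma for La/Li (1.85% of all miRNAs) or Ov/La (0%). Before adjustment 3 were higher and 4 lower for La/Li (14.8% of all miRNAs), and 1 higher and 1 lower for Ov/La (1.85%). For Bo/Ov, where 2.78% of all miRNAs passed, no miRNA of the nutrient list did in limma. Before adjustment 1 of that list was higher and 1 lower (14.4% of all miRNAs). Of the leaf development list 2 passed, both lower in Bo leaves.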

How the data were processed

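Small RNA libraries of 12 samples were analysed. The authors matched reads exactly to miRBase v.21 entries, used miRDeep2 for unannotated reads, and deposited RPM values (named TPM) for each sample. The sources used here do not give read trimming or the handling of multiply matching reads. Each column added up to the same total. Dividing a sample's values by its smallest one gave whole numbers within 0.001, which were taken as reads. No count model was run, because each file held too few low values for that use.

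Groups were compared by limma 3.58.1 under R 4.3.3 (variance trend) on log2(RPM + 1), with 4 group means over the 12 samples, 2-sided and Benjamini-Hochberg adjusted over 216 miRNAs. Its step was tested on simulated data. Pooled reads were compared with exact binomial intervals (95%). Python 3.11.15, scipy 1.17.1 and matplotlib 3.10.9 were used. The members, lists and tests were chosen with earlier results of these data known. Named were all members, the 3 most similar miRNAs of each member with a mean of at least 10 RPM, the called miRNA with the largest Bo/Li change in each list, and hairpins with both arms. Others, such as hairpins below that level and the trio of ptc-miR169a, ptc-miR169d and ptc-miR169i, were chosen after their values were seen. Alternatives were the unadjusted threshold, other pseudocounts, filters and scalings, fitting each pair on its own samples, a replicate block, and leaving out single samples. Same-numbered samples' deviations from group means correlated at 0.25, 0.52 and 0.50 between La and Ov, which by the values alone links those numbers; in no other pair of leaf types were all 3 over 0.1. The most similar libraries of the series still differed beyond sampling noise (chi-square per degree of freedom 30.2).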

Additional observations from a re-analysis of the deposited data

How the results depend on the processing

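The count of members past the threshold moved with few alternatives. With the unadjusted threshold it was 1 in place of 0 for La/Li, 2 in place of 0 for Ov/Li, and 3 in place of 1 for both Bo/Li and Bo/Ov. With no filter on low values the Bo/Li count was 2, and with only the 6 samples of a pair it was 2 for Bo/Li and 0 for Bo/Ov. Leaving out single samples gave Bo/Li counts of 1 to 2, the 2 without La3. The member added in these last settings was ptc-miR169n-5p, on 8 reads, none of them in Bo leaves, so nothing is read from its addition. The replicate block changed no member's call: the count stayed 1 in each pair with Bo leaves and 0 in the rest. The log2 ratio Bo/Li of the mean family sums was -1.34 and ranged from -1.59 to -1.002 when single samples were dropped, while those for Ov/La, Bo/La and Bo/Ov changed sign (-0.30 to 0.48, -0.54 to 0.01 and -0.73 to 0.01). With RLE scaling, which sets libraries level by a median ratio, the median Bo/Li of all miRNAs was -0.13 in place of 0.09, and that of the members -1.45. Over all miRNAs, the number past the adjusted threshold for Ov/Li was 9, against 21 with the replicate block, 3 with a pseudocount of 10 and 14 with a mean of at least 10 RPM required, and for Bo/Li it was 27, against 17 with RLE scaling. The causes were not tested. Depth was low for the 13 members with fewer than 50 reads. Over pooled reads, exact intervals of 1 or more pairs excluded 1 for ptc-miR169a, ptc-miR169ac, ptc-miR169i, ptc-miR169q, ptc-miR169r, ptc-miR169s, ptc-miR169x and ptc-miR169z. None did for ptc-miR169aa, ptc-miR169b-3p, ptc-miR169n-5p, ptc-miR169u-5p and ptc-miR169v. Several of the intervals rested largely on 1 library, as for ptc-miR169q (La3) and ptc-miR169r (Ov1). They were not adjusted for the number of pairs, and the share over all miRNAs was not worked out. Nothing is therefore read from how many members are named. For ptc-miR169z, Li/La was 6.66 (2.59 to 21.8), but La/Li did not pass in limma (adjusted p = 0.399). These intervals hold counting error only. In the main fit, which takes in the spread of replicates, none of these members passed after adjustment.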
